A study of Rattus norvegicus with 48 samples.

Results

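The 9 genes followed here code for the phagocyte NADPH oxidase (Cybb, Cyba, Ncf1 and Ncf4), inducible nitric oxide synthase (Nos2), the blood cell GTPase Rac2, the actin regulators Vasp and Coro1a, and transglutaminase 2 (Tgm2). They were taken by symbol from the deposited expression table, in which they are 9 of 30211 rows, and 8 of them passed the filter on low values (0.5 CPM or more in 3 or more libraries, where CPM is the read count scaled to the size of the library), Nos2 being the exception. RNA-seq libraries had been made from mixed neuronal cultures of the cortex of 18-day-old Sprague-Dawley rat fetuses, used after 21 days in vitro, in 16 groups of 3 libraries (48 in all). The groups were Control, Cocaine (25 µM for 24 h), Tat (the HIV-1 transactivator protein, 6 ng/mL for 48 h) and Tat-Cocaine, and 4 compounds given alone, with Tat, or with Tat and cocaine. The compounds were 4OI (4-octyl itaconate, a membrane-permeable ester of the immune metabolite itaconate, 250 µM), Amlexanox (an inhibitor of the kinases TBK1 and IKKε, 25 µM), Tazemetostat (an inhibitor of the histone methyltransferase EZH2, 3 µM) and Senicapoc (a blocker of a calcium-activated potassium channel, 1 µM). The labels name no agent for Control, and each compound was given at 1 dose that differs from those of the others.

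The phagocyte oxidase passes electrons from NADPH across a membrane onto oxygen, which yields superoxide. Its catalytic subunit, coded by Cybb, sits in the membrane with the small subunit coded by Cyba, and it works only after the cytosolic subunits, those of Ncf1 and Ncf4 among them, and a Rac GTPase have joined it. In the brain it is known chiefly from microglia, which also use Rac2, Vasp and Coro1a for movement and engulfment. Tgm2 cross-links proteins and takes part in the clearance of dying cells.

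The labels call the cells neurons, and the libraries held markers of more types than that. Summed over 12 markers of microglia and macrophages, all listed and all past the filter, expression was 407 to 3298 CPM per library, against 751 to 3046 CPM for 6 neuronal markers and 5410 to 13240 CPM for 7 astrocyte markers. Of 7 neutrophil markers 3 passed the filter (summed 2.55 to 101 CPM over all 7), while S100a9, Mpo, Elane and Ngp stayed under 0.5 CPM in each library, and so did all 6 markers of T, NK and B cells. Cocaine replicate 3 stood apart with 24622 CPM of oligodendrocyte markers, the other libraries reaching at most 2180 CPM. Depth was 17.5 to 29.1 M reads on genes per library, so that 0.5 CPM stood for 8.58 to 14.96 reads.

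The promoters of Cybb and Ncf1 are shown because Cybb codes for the catalytic subunit and Ncf1 was the oxidase gene with the largest difference when Tazemetostat was added to Tat and cocaine, as given further on. They are the 250 bases before the RefSeq start in the GRCr8 rat assembly, which is not the build of the deposited values, written 5′ to 3′ on the strand of the gene. Capitals mark matches to a motif on either strand.
Cybb, chrX:16065066-16065315, minus strand: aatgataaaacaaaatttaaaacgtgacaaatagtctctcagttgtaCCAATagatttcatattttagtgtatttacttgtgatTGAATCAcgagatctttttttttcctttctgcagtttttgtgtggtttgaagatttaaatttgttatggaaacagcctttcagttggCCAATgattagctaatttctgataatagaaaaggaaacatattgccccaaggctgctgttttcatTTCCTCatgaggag
Ncf1, chr12:28121635-28121884, plus strand: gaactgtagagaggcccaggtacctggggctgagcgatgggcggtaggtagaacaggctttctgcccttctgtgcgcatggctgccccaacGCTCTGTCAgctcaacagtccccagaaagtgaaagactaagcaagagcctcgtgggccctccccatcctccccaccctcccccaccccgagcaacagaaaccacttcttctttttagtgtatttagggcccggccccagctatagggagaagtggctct
Of the 9 genes, 5 had an entry in the promoter table (Cybb, Cyba, Ncf1, Vasp and Coro1a). The Cybb promoter had a GC content of 32% and that of Ncf1 58.4%, against a median of 51.6% over 33365 promoters. In Cybb the capitals are 2 CCAAT boxes (CCAAT), starting 203 and 79 bases before the gene start, an AP-1 motif (TGANTCA, 166 bases before) that reads alike on both strands, and the core of the PU.1 motif (GAGGAA) on the opposite strand, 14 bases before the start. In Ncf1 they are an antioxidant response element (TGACNNNGC) on the opposite strand, 159 bases before the start. No matches overlapped. Over all promoters of this length, 34.03% held the CCAAT box, 6.35% the AP-1 motif, 23.3% the PU.1 core, 10.1% the antioxidant response element and 6.34% the NF-κB motif, which had no match in the 5 promoters.

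Tat against Control asks which of these genes answer to the viral protein alone. All 8 tested members had a higher mean in Tat cultures, and 7 of 8 rose with a limma FDR under 0.05, while 14.6% of all 15890 genes tested did. Over all genes called, 68.5% were higher, and 54.6% after quantile normalization. The largest differences, close to 6-fold, were those of Ncf4 and Rac2, followed by Tgm2, Vasp and Cybb, and the smallest were those of Cyba and Coro1a. Of the oxidase subunits, Cybb stood at 58.4, 109 and 106 CPM in Control and 384, 464 and 244 CPM in Tat libraries, so that the lowest Tat library was above the highest Control library. On the scale of log2(CPM + 0.5) used throughout, Cybb was 2.00 higher (SE 0.41, limma FDR 0.00051). Ncf4, whose product binds a membrane phosphoinositide, stood at 3.34, 7.75 and 5.49 CPM in Control and 32.3, 50.1 and 24.0 CPM in Tat libraries, again without overlap. The difference was 2.58 (SE 0.41, limma FDR 1.9e-05). Cyba went from 49.0 ± 15.6 CPM (SD, n = 3) to 104 ± 28.9 CPM (n = 3), a log2 fold change of 1.08 (limma FDR 0.011). Ncf1, which codes for the organizing subunit, was at 32.3, 76.2 and 68.5 CPM in Control and 218, 209.6 and 70.2 CPM in Tat libraries. Tat replicate 3 thus lay within the Control libraries, and Ncf1 fell short of the threshold (log2 fold change 1.41, SE 0.53, limma FDR 0.053).

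Rac2, the GTPase of the oxidase in blood cells and microglia, stood at 28.9, 56.9 and 46.1 CPM in Control and 283, 363 and 159.6 CPM in Tat libraries, and the groups did not overlap. Rac2 rose by 2.57 (SE 0.42, limma FDR 2.9e-05). Its paralog Rac1, which most cells use, was at 395 ± 28.4 and 419 ± 22.03 CPM (n = 3 each), a difference of 0.08 on the log2 scale (SE 0.09, limma FDR 0.50). Vasp, which promotes the elongation of actin filaments, was at 31.7, 52.9 and 49.7 CPM in Control and 197, 319 and 111 CPM in Tat libraries (log2 fold change 2.12, SE 0.39, limma FDR 0.00013). Its relatives Enah (log2 fold change −0.24, FDR 0.13) and Evl (0.05, FDR 0.80) did not pass the limma threshold. Coro1a, the coronin of blood cells, went from 86.7 ± 19.6 to 178 ± 57.9 CPM (n = 3 each), a log2 fold change of 1.01 (limma FDR 0.0062). Tgm2 stood at 26.2, 58.0 and 37.1 CPM in Control and 204, 324 and 143 CPM in Tat libraries, with every Tat library above every Control library. It rose by 2.45 on the log2 scale (SE 0.47, limma FDR 0.00024).

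Replicates are taken to be separate cultures, though the labels do not say so. The FDR values rest on a spread within groups that was estimated over all 48 libraries, not over those of Tat and Control alone. Cyba and Coro1a were called no longer without Tat replicate 2 (log2 fold changes 0.88 and 0.77, limma FDR 0.096 and 0.084) or when only the Tat and Control libraries were fitted (FDR 0.058 and 0.064), and Cyba also without Control replicate 1 (0.92, FDR 0.076). In the other direction, Ncf1 was called without Tat replicate 3 (1.94, FDR 0.012) or Control replicate 2 (1.64, FDR 0.048). With the replicate number as a block Ncf1 also passed (FDR 0.029), though these numbers did not pair the libraries.

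Markers of microglia moved in the same comparison. Of the 12, 4 were higher with Tat (Aif1, Itgam, Ptprc and Spi1), 1 was lower, and their median log2 fold change was 0.67, beside 2.06 for the 8 members. Their summed level was 909 to 1509 CPM in Control and 1319 to 2254 CPM in Tat libraries. Of the 5 markers of border macrophages 4 were lower, and of the 3 neutrophil markers tested 2 were higher (S100a8 and Csf3r). Another 3 sums separated without overlap between Tat and Control, those of astrocytes (6470 to 8837 against 9409 to 11567 CPM), of neurons (1064 to 1778 against 1824 to 2573 CPM) and of endothelium and mural cells (52.8 to 73.3 against 37.04 to 49.1 CPM). The last sum was mostly Pdgfrb, with a median of 45.9 CPM over all libraries beside 47.2 CPM for the sum. Its endothelial marker Cldn5 stayed under 0.5 CPM in every library, Flt1 reached at most 2.17 CPM, and Pecam1 was not listed. In bulk libraries, fewer cells of a type and less RNA per cell cannot be told apart, and the part of the markers in the rise of the members was not tested.

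**Figure D1:**
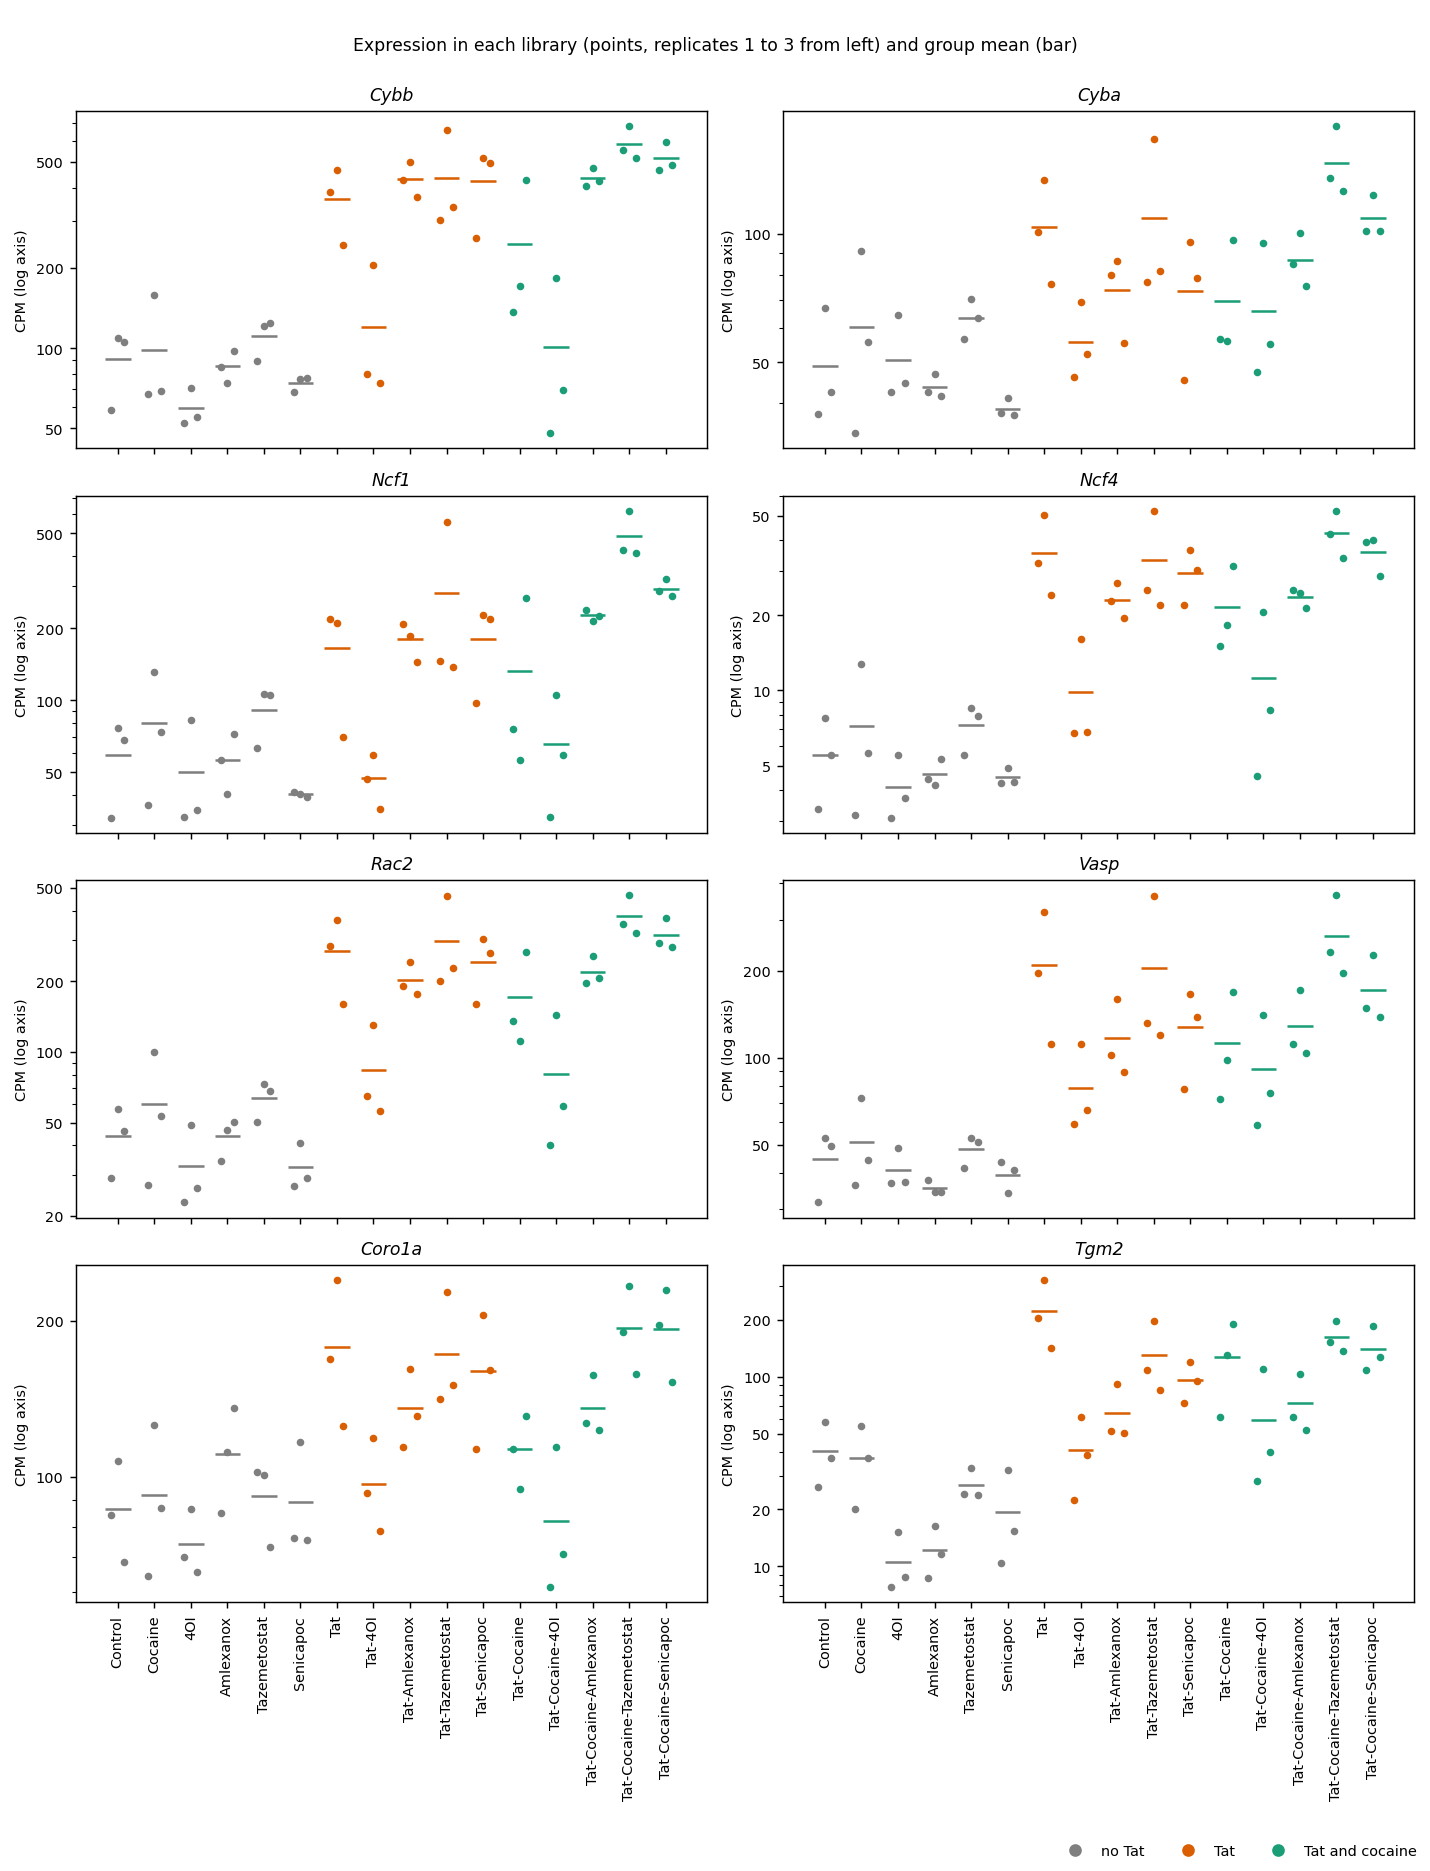
Expression of the 8 members past the filter in each of the 48 libraries (CPM, log axis, with a range of its own for each gene), as points for replicates 1 to 3 from the left and a bar for the group mean, coloured by Tat and cocaine. For every gene the 8 groups with the highest means are groups that received Tat, and the means of Tat-4OI and Tat-Cocaine-4OI lie below those of all other Tat groups.

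Cocaine alone was compared with Control in the same way. No member passed the threshold of limma (0 of 8 at FDR under 0.05 and 0 of 8 at an unadjusted p under 0.05), where 0.201% of all genes passed the first and 1996 of 15890 genes the second. The log2 fold changes lay between −0.15 (Tgm2) and 0.35 (Ncf1), and the libraries of all 8 genes overlapped. For Rac2 the log2 fold change was 0.31, with a 95% interval of −0.55 to 1.17. The count was also 0 without Cocaine replicate 3, the library with the high oligodendrocyte markers.

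With Tat and cocaine together, 5 of 8 members were higher than in Control (8.63% of all genes were). These were Ncf4 (log2 fold change 1.88, SE 0.41, limma FDR 0.0016), Rac2 (1.90, SE 0.42, FDR 0.0019), Tgm2 (1.57, SE 0.47, FDR 0.021), Vasp (1.27, SE 0.39, FDR 0.024) and Cybb (1.29, SE 0.41, FDR 0.029). Tat-Cocaine replicate 3 was high in each of them. Cybb stood at 136, 171 and 428 CPM in the 3 Tat-Cocaine libraries, Rac2 at 135, 112 and 266 CPM, and Ncf1 at 75.7, 56.2 and 267 CPM. Without this library, without Control replicate 1, or in a fit to 21 or to 6 of the libraries, only 2 members passed (Ncf4 and Rac2); the values of Cybb were then 0.80 (FDR 0.25) without Tat-Cocaine replicate 3 and 1.00 (FDR 0.16) without Control replicate 1. Tgm2 was lost as well without Control replicate 3 (1.54, FDR 0.056) or Tat-Cocaine replicate 2 (1.48, FDR 0.071). The microglial markers summed to 1301, 869 and 1423 CPM in these libraries, and 0 of 12 passed the threshold upwards.

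Tat-Cocaine and Tat were also compared directly. All 8 log2 fold changes were negative, from −0.88 (Tgm2) to −0.50 (Ncf1), but limma called 0 of 8 (0.0189% of all genes), with 2 of 8 members (Vasp and Coro1a) and 1297 genes at an unadjusted p under 0.05. The libraries of both groups overlapped for each member. For Tgm2 the 95% interval was −1.83 to 0.08.

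Of the members, Tgm2 was the only one called with a compound alone, in the comparisons of 4OI and of Amlexanox with Control. With 4OI, Tgm2 stood at 7.81, 15.1 and 8.76 CPM, below the 26.2 to 58.0 CPM of the Control libraries. It fell by 1.87 on the log2 scale (SE 0.47, limma FDR 0.018) and was the 1 member of 8 that was lower, among 0.686% of all genes. With Amlexanox, Tgm2 stood at 8.69, 16.3 and 11.7 CPM and fell by 1.66 on the log2 scale (SE 0.47, limma FDR 0.019). It was again 1 of 8 members, a count near the 7.6% of all genes that were lower. The other 7 log2 fold changes lay between −0.57 and 0.06 with 4OI and between −0.29 and 0.35 with Amlexanox. Both calls of Tgm2 were lost when only the compared groups were fitted (FDR 0.078 for 4OI and 0.23 for Amlexanox). The call for 4OI was also lost in the fit to 21 libraries (FDR 0.12) and without Control replicate 2 (−1.58, FDR 0.15), Control replicate 3 (−1.89, FDR 0.050), 4OI replicate 1 (−1.69, FDR 0.12) or 4OI replicate 3 (−1.77, FDR 0.10). That for Amlexanox was lost without Control replicate 2 (−1.36, FDR 0.11), Control replicate 3 (−1.68, FDR 0.081), Amlexanox replicate 1 (−1.45, FDR 0.051) or Amlexanox replicate 3 (−1.65, FDR 0.12). Alternatives other than leaving out a library kept the call for 4OI in 8 of 10 fits and that for Amlexanox in 8 of 9. The replicate number as a block was among them, and it paired the libraries of 4OI and Control.

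Tazemetostat and Senicapoc alone gave no called gene at all (0% of all genes in either comparison). Limma found 0 of 8 members at an unadjusted p under 0.05 with Tazemetostat, where 576 genes were, and 1 of 8 with Senicapoc, where 1378 genes were. That member was Tgm2, at 10.4, 32.4 and 15.4 CPM, and its libraries overlapped those of Control (log2 fold change −1.12, 95% interval −2.07 to −0.16, limma FDR 0.54). With Tazemetostat Tgm2 was at 24.2, 33.1 and 23.8 CPM (log2 fold change −0.52, interval −1.47 to 0.44). The oxidase genes were not called with any compound alone, and their intervals were wide. With Tazemetostat Ncf1 had a log2 fold change of 0.68 (95% interval −0.39 to 1.75), Ncf4 of 0.42 (−0.42 to 1.26), Cyba of 0.41 (−0.22 to 1.04) and Cybb of 0.33 (−0.50 to 1.16), and with 4OI Cybb had one of −0.57 (−1.40 to 0.26).

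The comparison of Tat-4OI with Tat asks how cultures with Tat differ when the itaconate ester is added. It includes any difference that 4OI makes without Tat, and a change of the response itself was tested as an interaction, given further on. All 8 members were lower with 4OI, and 7 of 8 fell with a limma FDR under 0.05, against 9.48% of all genes that were lower. Over all genes called, 39.2% were higher, and 49.98% after quantile normalization. Tgm2 had the largest difference, from 204, 324 and 143 CPM in Tat to 22.3, 61.6 and 38.7 CPM in Tat-4OI libraries. Replicate 3 thus lay among the Control libraries, replicate 1 below and replicate 2 above all of them, and Tgm2 fell by 2.47 on the log2 scale (SE 0.47, limma FDR 0.00040). Ncf4, at 6.74, 16.02 and 6.81 CPM, fell by 1.85 (SE 0.41, limma FDR 0.0021). Cybb, at 80.2, 205 and 73.8 CPM, fell by 1.72 (SE 0.41, limma FDR 0.0040). Tat-4OI replicate 2 was the highest of its group for all 8 members, and it was also the one with the most microglial markers.

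Rac2 stood at 64.9, 129.8 and 56.0 CPM in Tat-4OI libraries and fell by 1.70 (SE 0.42, limma FDR 0.0057). Ncf1, at 46.8, 59.2 and 35.3 CPM, was below its lowest Tat library of 70.2 CPM and fell by 1.67 (SE 0.53, limma FDR 0.028). Vasp, at 59.0, 111 and 66.2 CPM, fell by 1.33 (limma FDR 0.018), and its highest Tat-4OI library came close to its lowest Tat library. Coro1a fell by 0.84 (limma FDR 0.029), from 178 ± 57.9 to 96.8 ± 20.4 CPM (n = 3 each). Cyba, at 46.1, 69.0 and 52.2 CPM against 101, 134 and 76.3 CPM, missed the threshold (log2 fold change −0.87, SE 0.31, limma FDR 0.051). It was called without Tat replicate 3 (−1.07, FDR 0.028) or Tat-4OI replicate 2 (−1.04, FDR 0.037). Of 10 other alternatives 4 called it, with a higher filter or another scaling (FDR 0.046 to 0.049) and with the replicate number as a block (FDR 0.0052). The replicate numbers did not pair these libraries.

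These calls rested in part on the libraries that set the spread. In a fit to the 21 libraries of the Control, Cocaine, Tat, Tat-Cocaine and 4OI groups, 2 members passed (Ncf4 and Tgm2), with FDR values of 0.055 for Cybb, 0.056 for Vasp, 0.059 for Rac2, 0.072 for Coro1a and 0.11 for Ncf1. Leaving out Tat replicate 2 left 3 members (Cybb, Ncf4 and Tgm2; Rac2 −1.44, FDR 0.059), Tat replicate 1 left 5, and Tat-4OI replicate 1 or 3 left 4 each (Cybb, Ncf4, Rac2 and Tgm2). Cybb, Ncf4 and Tgm2 were called in each of the 6 fits with 1 library left out. Of the 12 microglial markers 3 were lower with 4OI (Itgam, Csf1r and Spi1), with a median log2 fold change of −1.03 over the 12. Their summed level was 566 to 1199 CPM with Tat-4OI and 1319 to 2254 CPM with Tat, without overlap. Other marker sums moved too. Border macrophage markers were at 45.98 to 201 CPM with Tat-4OI and 208 to 311 CPM with Tat, those of endothelium and mural cells (mostly Pdgfrb) at 23.9 to 33.2 against 52.8 to 73.3 CPM and neuronal ones at 2125 to 2324 against 1064 to 1778 CPM, all without overlap. Neutrophil markers had a mean of 19.4 against 61.4 CPM, and their libraries overlapped. The part of any of these in the fall of the members was not tested.

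The other compounds did not give a called member together with Tat. With Amlexanox limma called 0 of 8 members (0.837% of all genes), with 1 of 8 members and 1988 genes at an unadjusted p under 0.05. That member was Tgm2, at 51.9, 91.4 and 50.8 CPM, each below every Tat library, 1.75 lower on the log2 scale (−1.75, SE 0.47, limma FDR 0.061). The replicate numbers paired these libraries, and with the replicate number as a block Tgm2 passed the threshold (FDR 0.00024). The other 7 members lay between −0.75 (Vasp) and 0.29 (Cybb), and their libraries overlapped those of Tat. Cybb, for example, was at 428, 501 and 369 CPM.

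With Tazemetostat and Tat, 0 of 8 members and 0% of all genes were called by limma, and 0 of 8 members and 851 genes had an unadjusted p under 0.05. The log2 fold changes were −0.79 (Tgm2) to 0.60 (Ncf1). With Senicapoc and Tat, 0 of 8 members were called (0.409% of all genes), and 1 of 8 members and 2909 genes had an unadjusted p under 0.05. It was Tgm2 once more, at 72.9, 119 and 94.7 CPM, below every Tat library (log2 fold change −1.17, SE 0.47, limma FDR 0.20). The other 7 members lay between −0.65 (Vasp) and 0.21 (Cybb).

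**Figure D2:**
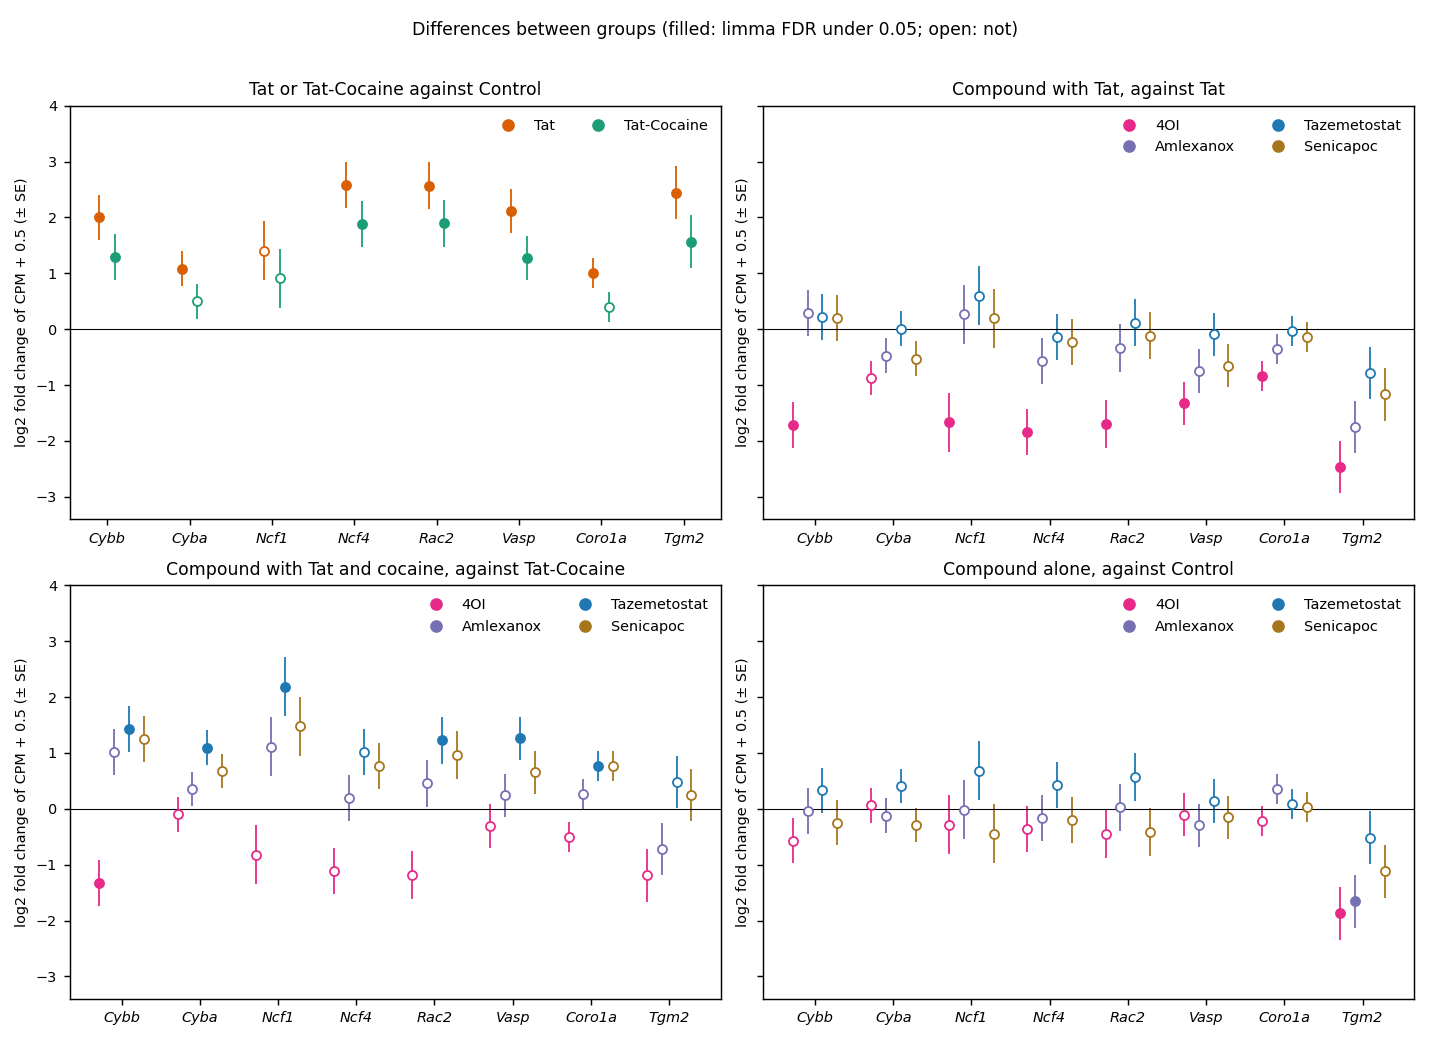
Fitted log2 fold changes of CPM + 0.5 for the 8 tested members (vertical axis, points with bars of 1 SE), for Tat and Tat-Cocaine against Control, for each compound with Tat against Tat, with Tat and cocaine against Tat-Cocaine, and alone against Control. Filled points have a limma FDR under 0.05, and open points do not. 4OI with Tat lies between −2.47 and −0.84 for all 8 members, and the differences of the compounds alone are called only for Tgm2.

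In cultures with Tat and cocaine the members differed by compound. With 4OI, all 8 log2 fold changes against Tat-Cocaine were negative (−1.33 to −0.10), and 1 of 8 members was called lower by limma, against 3.29% of all genes. It was Cybb, at 47.9, 184 and 69.8 CPM in Tat-Cocaine-4OI libraries (log2 fold change −1.33, SE 0.41, limma FDR 0.040), whose replicate 2 lay within the 136 to 428 CPM of Tat-Cocaine. The call was lost in the fits to 21 libraries (FDR 0.19) and to the compared groups (FDR 0.38), without any filter (FDR 0.060), and without Tat-Cocaine replicate 2 (−1.50, FDR 0.056), Tat-Cocaine replicate 3 (−0.84, FDR 0.23), Tat-Cocaine-4OI replicate 1 (−0.92, FDR 0.21) or Tat-Cocaine-4OI replicate 3 (−1.19, FDR 0.16). Without Tat-Cocaine-4OI replicate 2, 4 members were called. For Rac2 the log2 fold change was −1.18 (limma FDR 0.084) and for Tgm2 −1.19 (FDR 0.12). Microglial markers summed to 407 to 1240 CPM in Tat-Cocaine-4OI and 869 to 1423 CPM in Tat-Cocaine libraries, with 2 of 12 lower. Without overlap, border macrophage markers were at 34.96 to 157 against 208 to 441 CPM, those of endothelium and mural cells (mostly Pdgfrb) at 31.9 to 42.2 against 45.8 to 85.6 CPM, and those of astrocytes at 8591 to 13073 against 6534 to 8380 CPM. Their part in the differences was not tested.

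With Tazemetostat the same comparison went the other way. All 8 members had a higher mean in Tat-Cocaine-Tazemetostat than in Tat-Cocaine cultures, and 6 of 8 rose with a limma FDR under 0.05, among 15.2% of all genes. Ncf1 had the largest difference, from 75.7, 56.2 and 267 CPM to 424, 619 and 413 CPM, without overlap (log2 fold change 2.18, SE 0.53, limma FDR 0.0076). Cybb rose from 136, 171 and 428 CPM to 553, 680.1 and 519 CPM (1.43, SE 0.41, limma FDR 0.014). Cyba (1.10, FDR 0.013), Vasp (1.26, FDR 0.019), Rac2 (1.23, FDR 0.031) and Coro1a (0.77, FDR 0.032) also passed, while Ncf4 (1.01, limma FDR 0.060) and Tgm2 (0.48, FDR 0.45) did not.

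The 6 calls moved together when a library was left out. None remained without Tat-Cocaine replicate 1 (limma FDR 0.059 for Ncf1 to 0.13 for Vasp), without Tat-Cocaine replicate 2 (0.058 for Ncf1 to 0.15 for Rac2) or without Tat-Cocaine-Tazemetostat replicate 2 (0.064 for Ncf1 to 0.16 for Coro1a), and 7 were called without Tat-Cocaine replicate 3. Without Tat-Cocaine-Tazemetostat replicate 1, Rac2 (1.28, FDR 0.057) and Coro1a (0.78, FDR 0.065) were lost. Markers moved as well: 7 of 12 microglial markers were higher with Tazemetostat and their summed level was 2038 to 3273 CPM, against 869 to 1423 CPM in Tat-Cocaine, and 6 of 6 neuronal markers were lower. Their part in the difference was not tested.

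With Amlexanox and with Senicapoc added to Tat and cocaine no member was called. For Amlexanox limma called 0 of 8 (0.925% of all genes), with 2 of 8 members (Cybb and Ncf1) and 2829 genes at an unadjusted p under 0.05, and the log2 fold changes were −0.72 (Tgm2) to 1.11 (Ncf1). For Senicapoc it called 0 of 8 (0.0441% of all genes), with 5 of 8 members (Cybb, Cyba, Ncf1, Rac2 and Coro1a) and 2466 genes at an unadjusted p under 0.05. All 8 log2 fold changes were positive with Senicapoc (0.25 to 1.48). Cybb stood at 467, 593 and 485 CPM with Senicapoc. Without Tat-Cocaine replicate 3, 2 members were called in either comparison.

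The response to Tat was also measured in the presence of each compound. Against the compound alone, Tat with Amlexanox had 6 of 8 members higher (22.6% of all genes), Tat with Tazemetostat 6 of 8 (10.4%), Tat with Senicapoc 7 of 8 (10.8%) and Tat with 4OI 1 of 8 (3.08%). With the replicate number as a block, which paired the Amlexanox libraries, Cyba passed as well and the count with Amlexanox was 7. Rac2 rose with Amlexanox, Tazemetostat and Senicapoc present by 2.21, 2.12 and 2.87 on the log2 scale (limma FDR 0.00030, 0.00062 and 1.3e-05). With 4OI Rac2 was 1.32 higher (SE 0.42, limma FDR 0.061) and Ncf1 0.02 (SE 0.53, FDR 0.99). The 1 member called with 4OI was Tgm2 (1.84, SE 0.47, limma FDR 0.017), from 7.81, 15.1 and 8.76 CPM in 4OI to 22.3, 61.6 and 38.7 CPM in Tat-4OI libraries. Its call was lost in the fit to 21 libraries (FDR 0.088) and without 4OI replicate 1 (1.67, FDR 0.099), 4OI replicate 3 (1.74, FDR 0.076), Tat-4OI replicate 2 (1.49, FDR 0.16) or Tat-4OI replicate 3 (1.82, FDR 0.055).

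Whether the response to Tat differed with a compound was tested as an interaction. For 4OI limma called 0 of 8 members (0.497% of all genes), with 4 of 8 members (Cyba, Ncf4, Rac2 and Vasp) and 1896 genes at an unadjusted p under 0.05. All 8 differences of response were negative, from −1.49 (Ncf4, SE 0.58, limma FDR 0.30) to −0.60 (Tgm2, SE 0.67, FDR 0.73). The 95% interval of Tgm2 was −1.95 to 0.75. For Amlexanox (1.84% of all genes), Tazemetostat (0%) and Senicapoc (0%) limma called 0 of 8 members each, with 0 of 8 members at an unadjusted p under 0.05 and 2895, 271 and 762 genes.

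At the doses used, which differ between compounds, Tat-4OI was also set against Tat with each other compound. Limma called 4 of 8 members lower than in Tat-Amlexanox (6.82% of all genes were), 8 of 8 lower than in Tat-Tazemetostat (9.72%) and 4 of 8 lower than in Tat-Senicapoc (4.15%). The 4 were Cybb, Ncf1, Ncf4 and Rac2 in both cases. With cocaine added, 4 of 8 were lower in Tat-Cocaine-4OI than in Tat-Cocaine-Amlexanox (4.97%), 8 of 8 than in Tat-Cocaine-Tazemetostat (13.9%) and 6 of 8 than in Tat-Cocaine-Senicapoc (7.77%). With the replicate block, which paired those libraries, the last count was 8. The largest of these differences was that of Ncf1 between Tat-Cocaine-4OI and Tat-Cocaine-Tazemetostat (log2 fold change −3.01, SE 0.53, limma FDR 0.00010), with 32.6, 105 and 59.2 CPM against 424, 619 and 413 CPM. Markers differed in these comparisons as well. The microglial sum was 407 to 1240 CPM in Tat-Cocaine-4OI, 2038 to 3273 CPM in Tat-Cocaine-Tazemetostat and 1572 to 2196 CPM in Tat-Cocaine-Senicapoc libraries, and that of border macrophages 34.96 to 157, 409 to 484 and 435 to 579 CPM, and the part of these markers was not tested. Tgm2 was not called between 4OI and Amlexanox, with Tat (−0.72, 95% interval −1.67 to 0.24) or with Tat and cocaine (−0.47, interval −1.42 to 0.48). Of these counts, those against Tat-Tazemetostat and Tat-Cocaine-Amlexanox went to 0 when only the compared groups were fitted. Leaving out Tat-Tazemetostat replicate 2 left 1 of the 8 members, and leaving out 1 library brought the count to 1 against Tat-Amlexanox (Tat-Amlexanox replicate 1 or Tat-4OI replicate 3), against Tat-Senicapoc (Tat-4OI replicate 1 or 3, or Tat-Senicapoc replicate 2) and against Tat-Cocaine-Amlexanox (Tat-Cocaine-4OI replicate 1 or 3).

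Nos2, the inducible nitric oxide synthase of activated macrophages, was hardly detected. It was listed at 0 in 11 of 48 libraries and stood at no more than 3 reads in 37 of 48, and 1 library reached 0.5 CPM. That library was Tat-Cocaine replicate 2, with 0.655 CPM or 16 reads, beside 0.341 CPM (8 reads) and 0.161 CPM (4 reads) in the other Tat-Cocaine libraries. The 3 Tat-Cocaine-4OI libraries were listed at 0, where 3 reads stand for 0.1003 to 0.175 CPM over all libraries. In Control it was at 0.0767, 0.0490 and 0.0908 CPM and in Tat at 0.101, 0.230 and 0.236 CPM. Nos2 was not tested with the filter, and without it limma called it lower in Tat-Cocaine-4OI and in Tat-Cocaine-Amlexanox than in Tat-Cocaine, and higher in Tat-Cocaine than in Control, on these few reads.

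Across the 16 groups the levels of the 8 tested members had much the same order. The 8 highest group means were those of Tat groups for each of them. Tat-Cocaine-Tazemetostat had the highest mean for all but Tgm2, whose highest was Tat at 223 ± 92.3 CPM (n = 3). For Cybb the means ran from 59.5 ± 10.2 CPM in 4OI to 584 ± 84.9 CPM in Tat-Cocaine-Tazemetostat (n = 3 each), and for Rac2 from 32.2 ± 7.48 CPM in Senicapoc to 378 ± 75.8 CPM. The ratio of the highest to the lowest mean was 21.1 for Tgm2, 12.0 for Ncf1, 11.7 for Rac2, 10.4 for Ncf4, 9.82 for Cybb, 7.43 for Vasp, 3.77 for Cyba and 2.62 for Coro1a. Neighbours in this order could seldom be separated: the libraries of adjacent groups overlapped in 13 of 15 pairs for Cyba, 14 of 15 for Ncf1 and 15 of 15 for the other 6. For Tgm2 the groups at the lower end were 4OI at 10.6 ± 3.99 CPM, Amlexanox at 12.2 ± 3.81 CPM, Senicapoc at 19.4 ± 11.5 CPM and Tazemetostat at 27.004 ± 5.25 CPM, all below Control at 40.4 ± 16.2 CPM (n = 3 each). Cybb, Ncf4, Rac2 and Vasp also had 4OI, Amlexanox and Senicapoc as their lowest groups, below Control. Of the 8 tested members, only Tgm2 had a lower mean in Tazemetostat than in Control.

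The members also varied together between cultures of a group. Over the 28 pairs of tested members, Pearson's r was 0.805 (Ncf1 and Tgm2) to 0.996 (Ncf4 and Rac2) over the 16 group means and 0.663 to 0.945 over the deviations of the 48 libraries from their group means, which share depth and cell content. The sum of the microglial markers was highest in replicate 2 in 15 of 16 groups, Tat-Cocaine being the exception. The highest library of a group was the same as for this sum in 16 of 16 groups for Cyba and Tgm2, 15 for Rac2, 14 for Ncf4, Vasp and Coro1a, 13 for Cybb and 11 for Ncf1.

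Values were also set against this sum in the same library, as CPM per 1000 CPM of the 12 markers. Rac2 stood at 31.8 to 53.7 in the 18 libraries without Tat and at 86.0 to 209 in the 30 libraries with Tat, so that 30 of 30 were above every library without Tat. The same held for Cybb (at most 102 without and at least 105 with Tat) and Ncf4 (at most 6.19 and at least 8.94). For Vasp and Tgm2 it held in 29 of 30 libraries, for Ncf1 in 23, for Cyba in 9 and for Coro1a in 3. Coro1a ran from 54.4 to 129 without Tat and from 68.9 to 151 with Tat. In the 6 libraries with Tat and 4OI, Rac2 was at 86.0 to 116, Cybb at 106 to 171, Ncf4 at 8.94 to 16.7 and Tgm2 at 29.6 to 88.3. For Cyba (116), Vasp (146) and Coro1a (151), by contrast, the highest of all 48 libraries was 1 of these 6. In Tat-Cocaine-4OI against Tat-Cocaine, the group mean per marker was higher with 4OI for Cyba (100.02 against 58.6), Vasp (135 against 95.6) and Coro1a (127 against 96.0) and lower for Cybb (134 against 201), Ncf1 (93.2 against 103), Ncf4 (14.7 against 18.3), Rac2 (109 against 140) and Tgm2 (78.6 against 110.03). In Tat-4OI against Tat, this mean was higher with 4OI for Cyba (70.3 against 64.0) and Coro1a (120 against 109), with overlapping libraries. There it was lower for Cybb (136 against 225), Ncf1 (57.9 against 102), Ncf4 (11.4 against 21.4), Rac2 (97.8 against 164), Vasp (96.0 against 124) and Tgm2 (49.8 against 134). Since 5 of the 12 markers changed with Tat themselves, these ratios describe the libraries and were not tested.

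**Figure D3:**
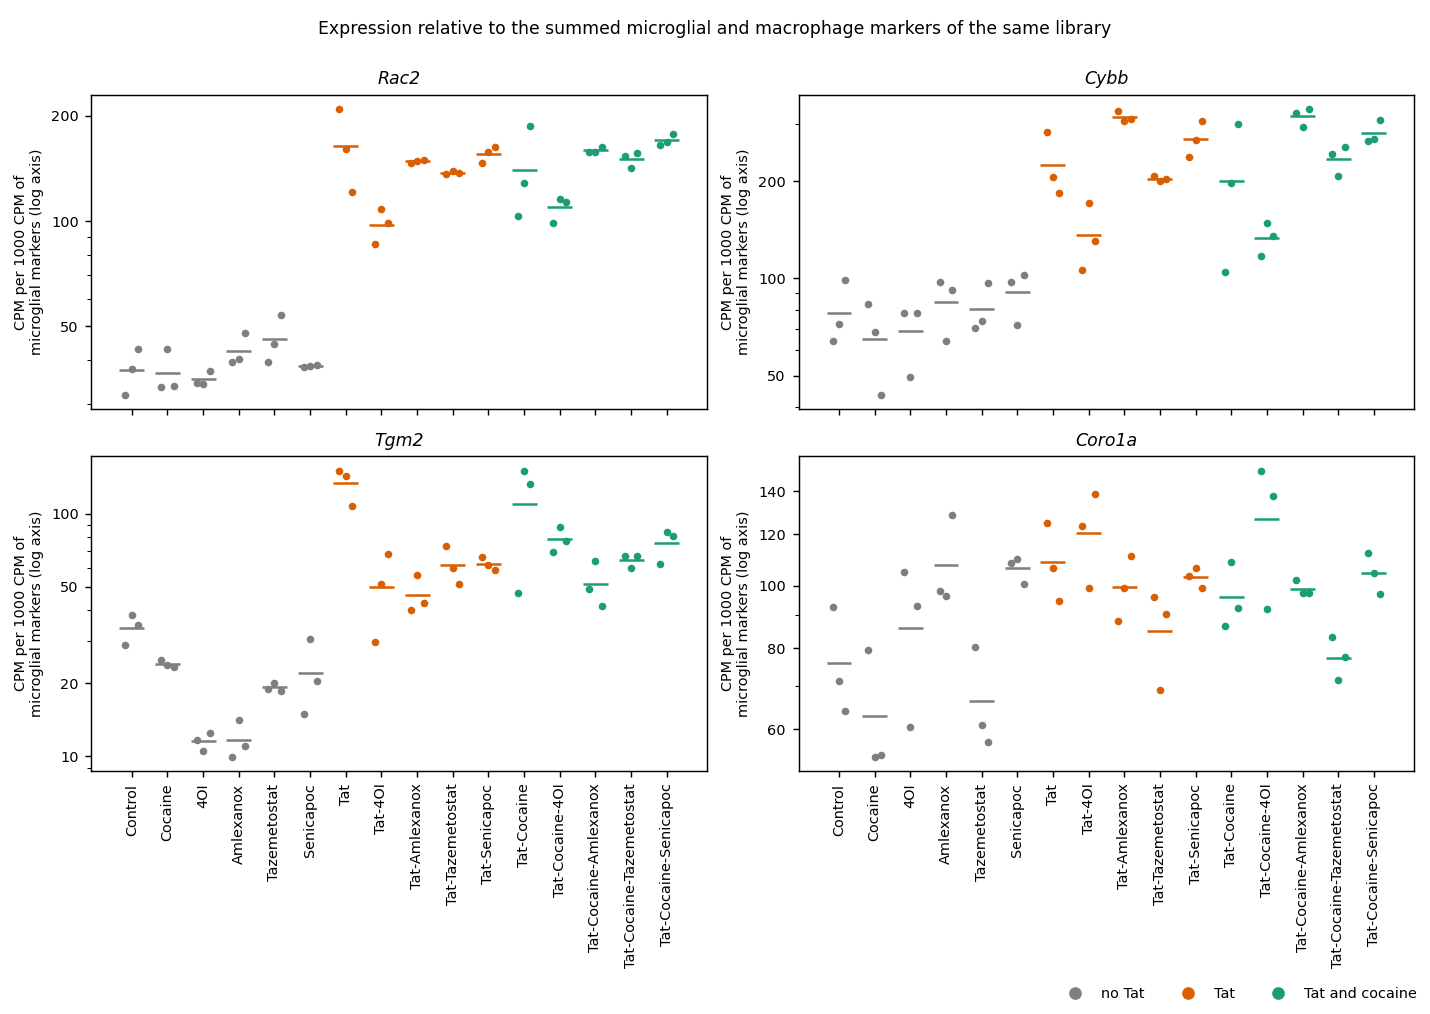
Expression of Rac2, Cybb, Tgm2 and Coro1a in each library, as CPM per 1000 CPM of the 12 summed microglial and macrophage markers (log axis, points for libraries, bars for group means). Rac2 is at 31.8 to 53.7 in all 18 libraries without Tat and at 86.0 to 209 in all 30 with Tat, while for Coro1a both ranges overlap widely.

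Tgm2 parted from Rac2 with the compounds. The ratio of Tgm2 to Rac2 CPM, which is not a ratio of transcripts because gene length is not considered, was 0.806 to 1.02 in Control, 0.720 to 0.894 in Tat and 0.551 to 0.746 in Cocaine libraries. It was 0.310 to 0.341 with 4OI alone and 0.231 to 0.350 with Amlexanox alone. With Amlexanox it stayed low when Tat was present (0.273 to 0.377) and when Tat and cocaine were (0.255 to 0.406). With 4OI it was 0.344 to 0.691 in Tat-4OI and 0.683 to 0.763 in Tat-Cocaine-4OI libraries, the latter within the 0.454 to 1.17 of Tat-Cocaine. Tazemetostat and Senicapoc, alone or with Tat, gave ratios of 0.348 to 0.797. The libraries of Tat lay above those of Tat with any of the 4 compounds in this ratio.

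**Figure D4:**
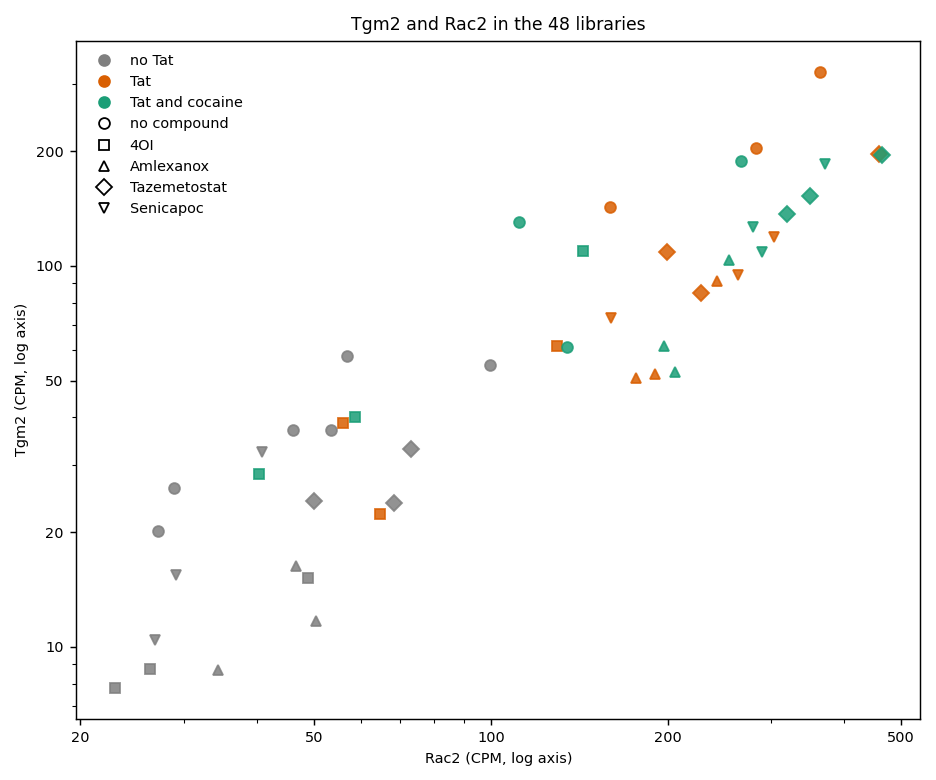
Tgm2 against Rac2 in the 48 libraries (CPM, both axes log), coloured by Tat and cocaine, with a marker shape for each compound. At a similar Rac2 level, libraries with Amlexanox lie lower in Tgm2 than those without a compound, with ratios of 0.231 to 0.406 against 0.454 to 1.17.

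Around the oxidase, 18 of the 21 genes listed from a pathway list of 22 were tested. With Tat 10 of 18 were higher and 0 lower (14.6% and 6.7% of all genes), with a median log2 fold change of 1.39 against 0.01 over all genes. Besides 4 members (Cybb, Cyba, Ncf4 and Rac2) these were 6 others, among them Vav1, which activates Rac GTPases (1.73, limma FDR 0.0049), and Duox1, a catalytic subunit of another oxidase (2.03, FDR 1.0e-08). With 4OI added to Tat 8 of 18 were lower and 0 higher (9.48% and 6.1% of all genes, median −0.69), Vav1 among them (−1.58, limma FDR 0.014) and Duox1 not (−0.52, FDR 0.092). In Tat-Cocaine-Tazemetostat against Tat-Cocaine 8 of 18 were higher and 0 lower (15.2% and 13.4% of all genes, median 0.84). There the proton channel Hvcn1, which balances the charge that the oxidase moves, rose from 13.3, 13.1 and 26.5 CPM to 53.3, 78.9 and 50.3 CPM (1.81, SE 0.37, limma FDR 0.0046), whereas with Tat alone it had a log2 fold change of 0.53 (FDR 0.31). Nox4 did not pass with Tat (0.26, FDR 0.49). All counts and medians of this list include the members, and those of the lists given next include any members they hold. Cybb, Ncf4 and Rac2 are among the 8 lower with 4OI, and Cybb, Cyba and Rac2 among the 8 higher with Tazemetostat. In part, these counts thus repeat the calls of the members. Vav1 was lost with Tat in the fit to the compared groups (FDR 0.056), without Tat replicate 2 (1.36, FDR 0.064) and without Control replicate 1 (1.39, FDR 0.055), and with 4OI in 5 such fits (FDR 0.066 to 0.14).

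Of 17 tested genes of nitric oxide metabolism 6 were higher and 1 lower with Tat (median 0.15), against 14.6% and 6.7% of all genes. Gch1, which makes the cofactor that nitric oxide synthases need, rose from 1.99, 5.54 and 2.04 CPM to 19.3, 22.9 and 19.2 CPM (log2 fold change 2.63, SE 0.40, limma FDR 8.3e-06). It fell by 1.41 with 4OI added (SE 0.40, limma FDR 0.014), a call that was lost without Tat replicate 2 (−1.32, FDR 0.071) or Tat-4OI replicate 1 (−1.06, FDR 0.13). Ass1, which supplies arginine, passed with Tat (1.68, FDR 0.026), and so did Arg1 (0.68, FDR 0.019), both with calls that single libraries ended. Arg1 stood near the filter level, at 0.039 to 1.12 CPM over all 48 libraries. With 0.1 in place of 0.5 CPM added before the log it was not called (1.08, FDR 0.053). The neuronal synthase Nos1 did not pass with Tat (−0.56, limma FDR 0.28) and was lower in Tat-Cocaine-Tazemetostat than in Tat-Cocaine (−1.41, FDR 0.010), as were the 6 neuronal markers. Nos3, the endothelial synthase, did not pass with Tat (−0.19, FDR 0.50). With 4OI added to Tat 2 of 17 genes were higher and 4 lower (6.1% and 9.48% of all genes), and in Tat-Cocaine-Tazemetostat 1 was higher and 5 lower (15.2% and 13.4%).

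Of 35 tested genes of the actin cytoskeleton of phagocytes, any listed members included, 19 were higher and 1 lower with Tat (median 0.42). With 4OI added to Tat 0 were higher and 12 lower (median −0.42). In Tat-Cocaine-Tazemetostat against Tat-Cocaine 20 were higher and 4 lower (median 0.47). Over all genes the shares higher and lower were 14.6% and 6.7% in the first comparison, 6.1% and 9.48% in the second and 15.2% and 13.4% in the third, so that the 4 lower genes of the third lie near the share over all genes. Coro1b, a coronin of many cell types, rose with Tat from 187 ± 21.2 to 424 ± 123 CPM (n = 3 each; log2 fold change 1.15, limma FDR 0.00015) and fell by 1.11 with 4OI (FDR 0.00043). Coro1c, its close relative, was at 144 ± 9.02 and 143 ± 1.69 CPM (limma FDR 0.99). Was, the activator of actin branching in blood cells, went from 9.65 ± 2.75 to 22.8 ± 9.40 CPM (n = 3 each; 1.16, limma FDR 0.033) and fell by 1.71 with 4OI (FDR 0.0032). Its call with Tat was lost without any 1 of 4 libraries (Tat replicates 1 and 2, Control replicates 1 and 3) and under 3 other settings (FDR 0.050 to 0.23). Dock2 was not analysed here.

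Of 16 tested transglutaminases and genes of engulfment, 4 were higher and 3 lower with Tat (median 0.17), against 14.6% and 6.7% of all genes. Tgm1, the transglutaminase of keratinocytes, stood at 1.07, 2.16 and 0.499 CPM in Control and 5.07, 12.6 and 12.4 CPM in Tat libraries (log2 fold change 2.60, SE 0.47, limma FDR 0.00010). With 4OI added it was at 4.04, 8.82 and 8.17 CPM, overlapping Tat (−0.45, SE 0.47, limma FDR 0.52), where Tgm2 fell by 2.47. F13a1, a transglutaminase of macrophages, varied from 0.149 to 62.1 CPM between libraries and was called lower in Tat-Cocaine-Tazemetostat than in Tat-Cocaine (−3.37, SE 1.00, limma FDR 0.016). This call was lost without Tat-Cocaine replicate 1 (−2.67, FDR 0.11) or Tat-Cocaine-Tazemetostat replicate 2 (−3.32, FDR 0.075). With 4OI added to Tat 1 of 16 genes was higher and 3 lower (6.1% and 9.48% of all genes), and in Tat-Cocaine-Tazemetostat 2 were higher and 3 lower, near the 15.2% and 13.4% of all genes.

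The genes whose 16 group means most resembled those of a member, among genes with a mean of at least 5 CPM in some group, were named by Pearson's r over the 16 means of log2(CPM + 0.5). For Cybb they were Ms4a6a (0.993), Arhgdib (0.987) and Pla2g4a (0.986), and for Cyba Snx1 (0.984), AC114233.1 (0.982) and Ostf1 (0.981). For Ncf1 they were Slc25a43 (0.989), Skap2 (0.988) and Plcg2 (0.987). For Ncf4 they included Rac2 (0.996) and P2ry6 (0.995), and for Rac2 P2ry6 (0.996) and Ncf4 (0.996). For Vasp they were St3gal6 (0.996), Slc11a2 (0.994) and Acod1 (0.992), for Tgm2 C1rl (0.983), Sp140 (0.978) and Tnfaip2 (0.973), and for Coro1a Fam49b (0.980), Arpc5 (0.980) and Susd1 (0.976).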

How the data were processed

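The labels give the molecule as polyA RNA. As the study's methods state, it had been sequenced as paired ends from libraries of a directional kit, aligned with STAR and counted per gene over uniquely mapped reads with featureCounts. The submitters' processing notes name Trim Galore 0.4.5, STAR 2.7.2, SAMtools 1.5 and Subread 1.5.3. The methods name the Rnor_6.0 assembly and the notes mRatBN7.2, so no coordinates of the values are given. The authors deposited 1 table of signal values, CPM scaled by the trimmed mean of M values in edgeR, for 48 libraries and 30211 genes. Of the values, 85.0% to 87.3% per library stood for whole reads within 0.02 read, too few for a count model. The table also holds 16 columns of group means and the authors' fold changes and p-values for 36 comparisons, which were not used.

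Groups came from the sample labels. Values were tested as log2(CPM + 0.5) with limma 3.58.1 in R 4.3.3 (lmFit and eBayes with a trend), over all 48 libraries and 16 groups, for the 15890 genes that reached 0.5 CPM in 3 or more libraries. Benjamini-Hochberg FDR values are over those genes, with a threshold of 0.05. An exact permutation test of 3 against 3 libraries cannot give a p under 0.1, so none was run. The test was checked on simulated data. The 9 members and the pathway and marker lists were chosen with earlier results of these data known. All members are named, as are their partners and paralogs in the lists, and the 3 genes most like each member among those with a group mean of at least 5 CPM. Some genes that these rules name are not reported here.

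Alternatives were another pseudocount, filter or scaling, the replicate number as a block, a fit to fewer libraries, and leaving out each library in turn. Replicate numbers paired the libraries where all 3 correlations of same-numbered libraries, as deviations from the group means, were over 0.1, which held in 8 of 26 comparisons (r from −0.779 to 0.814). These were Tat-Cocaine, 4OI, Tazemetostat and Senicapoc against Control, Tat-Amlexanox against Tat and against Amlexanox, and Tat-Cocaine-4OI against Tat-Cocaine-Tazemetostat and Tat-Cocaine-Senicapoc. Promoters are from RefSeq.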

Additional observations from a re-analysis of the deposited data

How the results depend on the processing

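None of 105 values of single genes, 101 of them called in the main fit, reversed its direction under any alternative run. Most values that were not called, among them those close to no change, were not checked for a reversal. Of the 105 values of single genes, those recomputed under alternatives other than leaving out a library kept their side of the threshold in 908 cases, lost it in 66 and gained it in 6, and those with 1 library left out did so in 467, 159 and 4 cases. In a fit to 21 libraries, the members called were 2 for Tat-Cocaine against Control, 0 for 4OI against Control, 2 for Tat-4OI against Tat, 0 for Tat-Cocaine-4OI against Tat-Cocaine and 0 for Tat-4OI against 4OI. When only the compared groups were fitted, they were 2 for Tat-Cocaine against Control, 0 for 4OI and 0 for Amlexanox against Control, 3 for Tat-4OI against Tat, 0 for Tat-Cocaine-4OI against Tat-Cocaine, 0 for Tat-4OI against Tat-Tazemetostat and 0 for Tat-Cocaine-4OI against Tat-Cocaine-Amlexanox. These fits have fewer libraries to estimate the spread. With the replicate block, 1 member (Tgm2) was called in Tat-Amlexanox against Tat, where the numbers paired the libraries by the rule given above. The block also gave 1 (Tgm2) in Tat-Senicapoc against Tat, 4 in Tat-Cocaine-4OI against Tat-Cocaine and 4 in Tat-4OI against 4OI, where that rule was not met. The rule takes all genes tested, while the sum of the microglial markers was highest in replicate 2 in 15 of 16 groups. Without a filter on low values 1 member (Nos2) was called in Tat-Cocaine-Amlexanox against Tat-Cocaine. The cause of these changes was not tested otherwise.

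With 1 library left out, the members called ranged from 5 to 8 for Tat, 2 to 5 for Tat-Cocaine, 0 to 1 for 4OI and 0 to 1 for Amlexanox against Control, and from 3 to 8 for Tat-4OI against Tat. Against Tat-Cocaine the range was 0 to 4 with 4OI, 0 to 2 with Amlexanox, 0 to 7 with Tazemetostat and 0 to 2 with Senicapoc. For Tat with a compound against that compound it was 0 to 2 (4OI), 5 to 7 (Amlexanox), 5 to 7 (Tazemetostat) and 6 to 8 (Senicapoc). Tat-4OI against Tat with Amlexanox, Tazemetostat and Senicapoc gave 1 to 4, 1 to 8 and 1 to 5, and the same comparisons with cocaine gave 1 to 5, 6 to 8 and 5 to 8. Quantile normalization moved the share of higher calls over all genes from 57.1% to 45.8% in Tat-Amlexanox against Amlexanox, from 65.0% to 53.1% in Tat-Tazemetostat against Tazemetostat, from 67.8% to 49.6% in Tat-Senicapoc against Senicapoc and from 37.9% to 52.3% in Tat-Cocaine-4OI against Tat-Cocaine-Senicapoc. Depth limits Nos2 alone among the members.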
